A study of Homo sapiens with 6 samples.

Results

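Heme is the iron-holding ring that cytochromes, catalase and many oxygenases carry as cofactor. It is made by a chain of enzymes that starts in the mitochondrial matrix, passes through the cytosol and ends at the inner mitochondrial membrane, where ferrochelatase inserts iron into protoporphyrin. The iron for that last step enters the matrix through mitoferrins, and heme oxygenases break heme down again. The genes described here are 7 of these enzymes (*ALAS1*, *ALAD*, *UROS*, *UROD*, *CPOX*, *PPOX* and *FECH*), the iron importer mitoferrin 1 (*SLC25A37*) and the constitutive heme oxygenase *HMOX2*. They were taken by symbol from the expression table, which held all 9 of them among 27216 rows.

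RNA sequencing was performed in 6 samples of H1975, a line of human lung adenocarcinoma cells with mutant EGFR that the labels give as wild type. The 3 parental samples were labelled as osimertinib (Osi, an EGFR tyrosine kinase inhibitor) at 1000 nM for 0 h, and the 3 adapted samples as 1000 nM for 72 h, after which apoptotic cells had been washed off, so that a response of the cells and the loss of cells that died cannot be told apart. DMSO, the solvent, names the parental columns, and how long these cells had been kept in it is not given in the sources used here. According to the labels RNase R, an enzyme that digests linear RNA, was applied before library construction, whereas the study's methods speak of total RNA and do not mention it. The dose in the labels is also the one the study's text gives for cells in culture, although its reagent list has a lower one. Nothing in the labels says that the samples came from separate cultures, so the p-values measure the spread between these samples, which may be technical.

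Values were taken as log2(FPKM + 1), with FPKM the number of sequenced fragments relative to the length of the transcript and to the library. The unit is not named with the deposited values, so FPKM is an assumption. Back on the linear scale, samples summed to 375342 at the lowest and 387753 at the highest. The depth of the samples is unknown. Adapted replicate 1 stood apart from its group, with a correlation of 0.991 across rows to either other adapted sample against 0.996 between those, and it was the sample farthest from the adapted mean in 49.2% of the rows tested. Values without it are given beside those that rest on it most. Transcripts encoded by mitochondrial DNA made up 8.07% to 8.66% of the summed FPKM in parental and 9.73% to 12.2% in adapted samples. With samples set to an equal sum without these transcripts, 6 of the 9 genes passed again, in the same directions, with a log2 fold change of -1.20 for *SLC25A37*. In that fit 7270 of 12656 rows passed, 4295 as higher and 2975 as lower in adapted cells. Without this scaling 7202 passed, 3889 as higher and 3313 as lower. Summed over 9 epithelial markers, FPKM was between 4101 and 4453 in the 6 samples, with the keratins *KRT7*, *KRT8*, *KRT18* and *KRT19* the most abundant on average. Within that sum *KRT7* and *NKX2-1* rose, *KRT8*, *KRT18*, *KRT19* and *NAPSA* fell, and *EPCAM*, *CDH1* and *EGFR* did not pass (limma, adjusted p under 0.05). The mean FPKM of *KRT7* went from 671 to 1422 and that of *KRT19* from 936 to 556, so that *KRT19* led in parental and *KRT7* in adapted samples. Of 9 erythroid markers, chosen because red cell precursors make most of the heme in the body, 6 were listed at 0 in all samples and the sum was at most 0.0724, with *ALAS2*, the erythroid form of the first enzyme, the most abundant on average. Summed FPKM of 6 fibroblast markers was between 3.04 and 3.15 in parental and between 8.59 and 9.32 in adapted samples, mostly from *COL1A1*. The 4 leukocyte markers summed to at most 1.09, with *CD14* the most abundant and *CD3E* at 0, and the 3 endothelial markers to at most 3.47, with *PECAM1* the most abundant in parental (mean FPKM 1.35) and *CDH5* in adapted samples (2.39). The part of these markers in the results was not tested.

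Between parental and adapted cells, 6 of the 9 genes passed the threshold (limma, Benjamini-Hochberg adjusted p under 0.05 over 12656 rows). *ALAS1*, *ALAD*, *UROD* and *HMOX2* rose, *CPOX* and *SLC25A37* fell, and *UROS*, *PPOX* and *FECH* did not pass. This share of the genes lies near that of all rows tested, of which 56.9% passed, 30.7% as higher and 26.2% as lower in adapted cells. The median log2 fold change was 0.19 over the 9 genes and 0.028 over all rows. The groups did not overlap in 5 of the 9 genes, against 66.3% of all rows. Without adapted replicate 1, *HMOX2* no longer passed and 5 genes did, while 8370 of the 12656 rows passed in place of 7202. In these bulk samples, fewer cells that express a gene and less of its RNA per cell cannot be told apart.

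**Figure D1:**
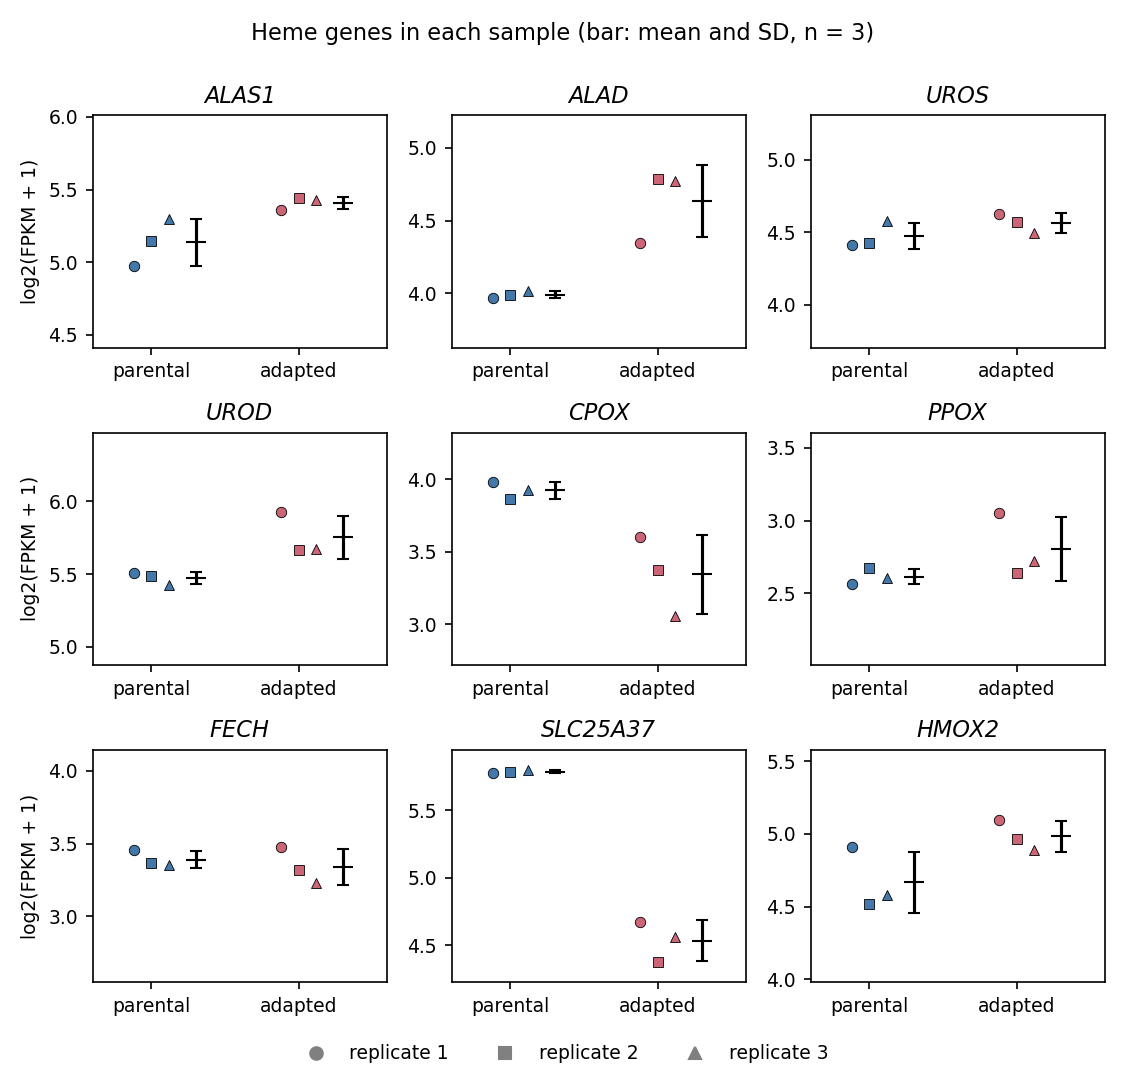
Log2(FPKM + 1) of each of the 9 genes (vertical axis) in the 3 parental and 3 adapted samples (points, shaped by replicate), with the mean and SD of each group beside them. *SLC25A37* lies between 5.77 and 5.80 in parental and between 4.37 and 4.67 in adapted samples, while the groups overlap for *UROS*, *PPOX*, *FECH* and *HMOX2*.

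The first enzyme, 5-aminolevulinate synthase (*ALAS1*), joins glycine and succinyl-CoA in the matrix and is the rate-limiting step outside red cells. Its FPKM was 30.4, 34.3 and 38.3 in the parental and 40.1, 42.4 and 42.0 in the adapted samples. All adapted samples were above all parental ones, but the highest parental sample came close to the lowest adapted one. The rise in mean FPKM was 1.21 times, and the log2 fold change was 0.27 ± 0.09 (SE, limma, adjusted p = 0.0318). This call was lost with all rows tested, low ones included (adjusted p = 0.0518), and on leaving out any of 4 samples, parental replicates 1 and 2 and adapted replicates 2 and 3 (log2 fold change 0.19 to 0.27, adjusted p 0.0746 to 0.101).

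The cytosolic steps begin with *ALAD*, which condenses 5-aminolevulinate into the pyrrole porphobilinogen and holds zinc. *ALAD* was at an FPKM of 14.7, 14.8 and 15.2 in parental and 19.3, 26.6 and 26.4 in adapted samples. The parental samples were nearly equal, and adapted replicate 1 lay between them and the other adapted samples. *ALAD* rose 1.62 times in mean FPKM, the largest rise of the 9 genes, with a log2 fold change of 0.64 ± 0.12 (SE, limma, adjusted p = 0.00306), or 0.79 without adapted replicate 1. It passed the threshold of 0.05 in each of 19 other fits.

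*UROS* and *UROD*, which close and then decarboxylate the tetrapyrrole ring, follow in the cytosol. *UROD* FPKM was 44.5, 43.8 and 41.9 in parental and 59.7, 49.7 and 50.02 in adapted samples. All adapted samples were above the parental ones, adapted replicate 1 by the most. The log2 fold change was 0.28 ± 0.08 (SE, limma, adjusted p = 0.0228) with all samples and 0.20 (adjusted p = 0.0101) without adapted replicate 1, and the call was lost on leaving out any one parental sample (adjusted p 0.0547 to 0.0828). *UROS* FPKM was 20.3, 20.5 and 22.9 in parental and 23.7, 22.8 and 21.5 in adapted samples. These ranges overlap, and the 95% interval of the log2 fold change went from -0.07 to 0.26 (limma, adjusted p = 0.299). The log2 fold change of *UROS* was 0.09 with all samples and 0.06 without adapted replicate 1.

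The last enzymes act in mitochondria. *CPOX*, in the intermembrane space, turns coproporphyrinogen into protoporphyrinogen, which *PPOX* oxidizes and *FECH* loads with iron. *CPOX* FPKM was 14.8, 13.5 and 14.2 in parental and 11.1, 9.39 and 7.33 in adapted samples. Every adapted sample was below every parental one, and the adapted samples were spread more widely. *CPOX* was the only one of the 7 enzymes that fell, with a log2 fold change of -0.58 ± 0.13 (SE, limma, adjusted p = 0.00757), and -0.71 without adapted replicate 1. The call held in each of 19 other fits at a threshold of 0.05. It shares 5.0% of its exonic bases with *AC021660.3* on the same strand, which is listed at 0 in all samples.

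*PPOX* was the lowest of the 9 genes, with an FPKM of 4.92, 5.38 and 5.09 in parental and 7.29, 5.23 and 5.58 in adapted samples. Adapted replicate 1 alone was well above the parental range. The log2 fold change was 0.19 (95% interval -0.08 to 0.46, limma, adjusted p = 0.195), and 0.06 without that sample. In GENCODE, 24.3% of the exonic bases of *PPOX* are also exonic in *B4GALT3* on the opposite strand, and whether counting used strand is not stated. *B4GALT3* moved the other way, by -0.36 on the log2 scale (adjusted p = 0.00484).

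For *FECH*, an inner membrane enzyme that itself holds an iron-sulfur cluster, FPKM was 9.97, 9.30 and 9.19 in parental and 10.1, 8.96 and 8.36 in adapted samples. The groups overlap, with all parental samples within the range of the adapted ones. The log2 fold change was -0.05 with a 95% interval from -0.24 to 0.14 (limma, adjusted p = 0.623). It was -0.12 without adapted replicate 1, and its direction turned (0.0059) without adapted replicate 3.

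As a view of their upstream sequence, 100 bases before the first annotated start are shown for the 4 enzymes that passed the threshold, read on the strand of the gene from the RefSeq promoter table (GRCh38.p14). Capitals mark GGGCGG (the GC box) and CCAAT on either strand. The stretches lie at chr3:52197983-52198082 on the plus strand (*ALAS1*), chr9:113401334-113401433 on the minus strand (*ALAD*), chr1:45012047-45012146 on the plus strand (*UROD*) and chr3:98593724-98593823 on the minus strand (*CPOX*).
ALAS1: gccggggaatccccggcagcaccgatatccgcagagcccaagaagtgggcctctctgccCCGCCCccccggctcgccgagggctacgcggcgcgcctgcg
ALAD: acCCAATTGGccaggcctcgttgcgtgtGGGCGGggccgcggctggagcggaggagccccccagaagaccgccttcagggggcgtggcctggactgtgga
UROD: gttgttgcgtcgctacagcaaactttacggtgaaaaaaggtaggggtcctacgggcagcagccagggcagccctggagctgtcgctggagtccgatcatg
CPOX: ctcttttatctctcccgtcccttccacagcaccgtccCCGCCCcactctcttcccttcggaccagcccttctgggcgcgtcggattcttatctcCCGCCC
A GC box stands in the stretches of *ALAS1*, *ALAD* and *CPOX*, which rose, rose and fell. Neither motif stands in the stretch of *UROD*, but its longer window in the promoter table holds 1 GGGCGG. *ALAD* has CCAAT on both strands, overlapping in a palindrome. Windows in the promoter table run from 250 bases before to 50 after the start. The search covered 10 windows of 7 of the 9 genes, of which the pairs of *PPOX* and *ALAD* overlap. *UROS*, which has no entry there, and *SLC25A37* were not searched, so the counts below leave both out. GGGCGG was found in 8 of these 10 windows and in 45.0% of all 35116 windows. CCAAT was found in 4 of the 10 and in 34.6% of all windows. CGCATGCG, a core of the NRF1 motif, was found in 1 of the 10, that of *ALAS1* (2.0% of all windows), CACGTG, the E-box, in 1 of *HMOX2* (7.3%), and TGACNNNGC, a core of the antioxidant response element, in that of *FECH* (13.3%). All motifs were searched on both strands.

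Along the order of these 7 enzymes, the genes that passed rose at *ALAS1*, *ALAD* and *UROD* and fell at *CPOX*. The ratio of *UROD* to *CPOX* FPKM was 3.01, 3.24 and 2.95 in parental and 5.37, 5.30 and 6.82 in adapted samples. The lowest adapted ratio was well above the highest parental one. This ratio was picked with the values known and carries no test. The summed FPKM of the 7 enzymes went from 143 ± 3.69 to 166 ± 5.14 (SD over 3 samples per group), 1.16 times the parental sum.

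**Figure D2:**
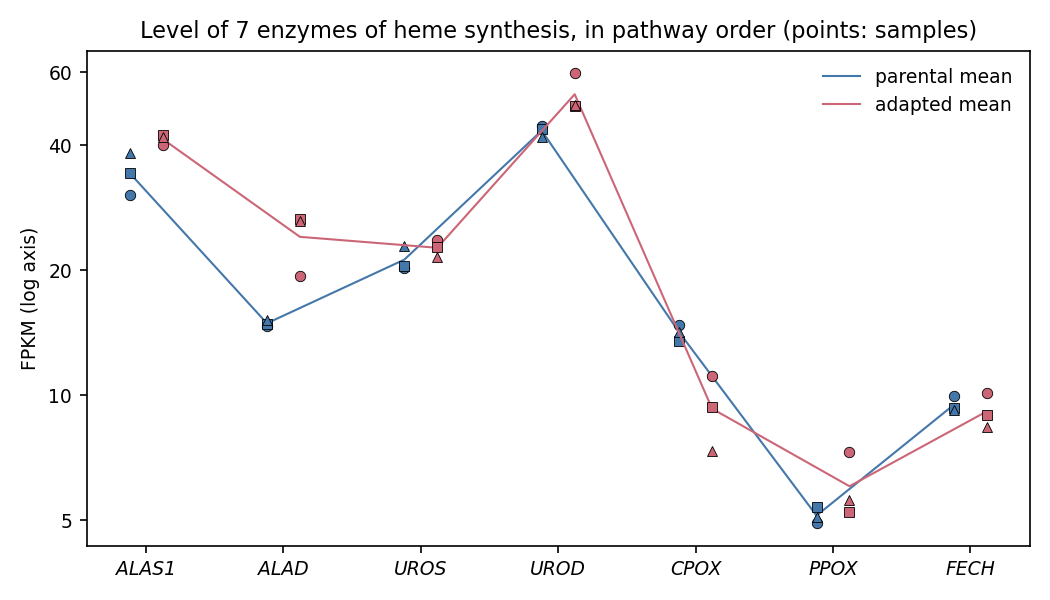
FPKM on a log axis for the 7 enzymes of heme synthesis in the order in which they act, with lines through the means of the 3 parental and 3 adapted samples and points for the samples. The lines cross: adapted cells lie above parental cells at *ALAS1*, *ALAD* and *UROD* and below them at *CPOX*.

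In parental cells the levels of the 9 genes per transcript length ran from *SLC25A37* (mean FPKM 54.1) through *UROD* (43.4), *ALAS1* (34.3), *HMOX2* (24.6), *UROS* (21.2), *ALAD* (14.9), *CPOX* (14.2) and *FECH* (9.49) to *PPOX* (5.13). The ranges over 3 samples overlapped between *HMOX2* and *UROS* and between *ALAD* and *CPOX*, and were apart for the other neighbours. In adapted cells *UROD* (53.1) stood first and *SLC25A37* (22.3) sixth, and the ranges of *ALAD* (24.1), *UROS* (22.7) and *SLC25A37* overlapped from one to the next, as did those of *CPOX* (9.28) and *FECH* (9.15). *PPOX* (6.03) was again last.

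Mitoferrin 1, the product of *SLC25A37*, carries iron over the inner mitochondrial membrane. The FPKM of *SLC25A37* was 53.6, 54.0 and 54.5 in parental and 24.5, 19.7 and 22.6 in adapted samples. The parental samples were within 1 FPKM of one another, and no adapted sample came near them. Mean FPKM in adapted cells was 0.412 times that in parental cells, and the log2 fold change was -1.25 ± 0.08 (SE, limma, adjusted p = 2.87e-05). It lay between -1.31 and -1.17 over 19 other fits. This was the only one of the 9 genes with a change of at least 1 on the log2 scale.

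The paralog *SLC25A28* (mitoferrin 2), the form expressed in most tissues, went from an FPKM of 9.25 ± 0.83 to 7.06 ± 1.21 (SD over 3 samples per group), and the log2 fold change was -0.36 ± 0.12 (SE, limma, adjusted p = 0.0415). The 2 mitoferrins together went from an FPKM of 63.3 ± 1.30 to 29.3 ± 3.51. Mitoferrin 1 made up 86.2%, 85.7% and 84.3% of this sum in the parental samples and 76.0%, 77.7% and 74.4% in the adapted samples. The share was lower in every adapted sample, by 9.37 percentage points on average (p = 0.1 in a two-sided exact permutation test, which cannot go lower with 3 samples per group), and mitoferrin 1 was still the larger part in all 6 samples. The ratio of *SLC25A37* to *FECH* FPKM, the importer against the enzyme that uses the iron, was 5.38, 5.81 and 5.94 in parental and 2.42, 2.20 and 2.71 in adapted samples, a ratio chosen with the values known.

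**Figure D3:**
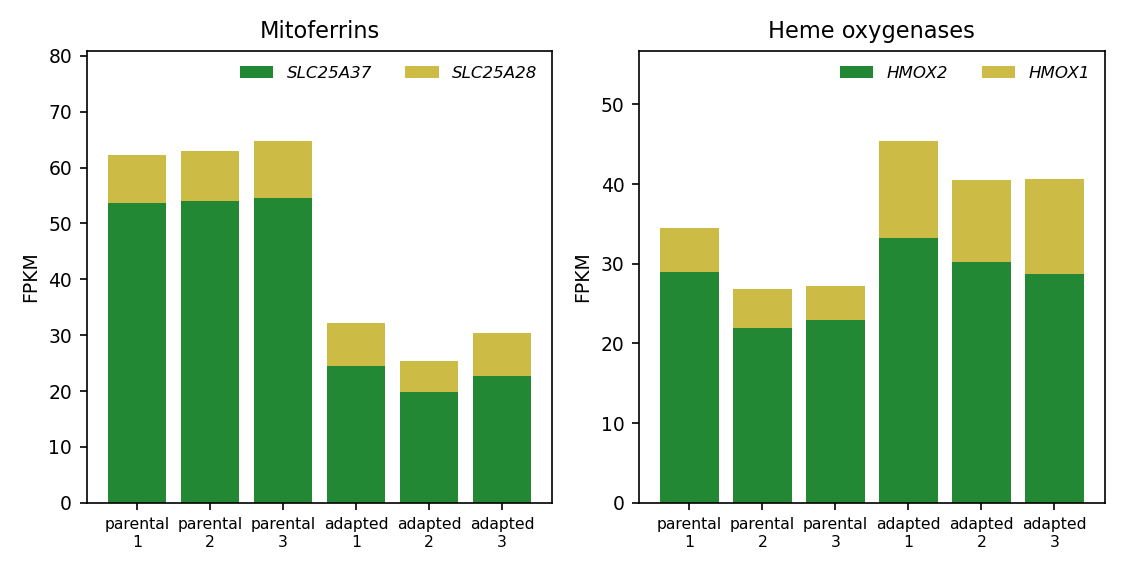
Stacked FPKM (vertical axis) of the 2 mitoferrins (left) and the 2 heme oxygenases (right) in each of the 6 samples. The summed mitoferrin bars reach between 62.2 and 64.7 in parental and between 25.4 and 32.2 in adapted samples, and the summed oxygenase bars are higher in adapted samples.

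Breakdown of heme to biliverdin, carbon monoxide and iron is carried out by the constitutive *HMOX2* and the inducible *HMOX1*. *HMOX2* FPKM was 29.01, 21.9 and 22.9 in parental and 33.2, 30.2 and 28.6 in adapted samples. Parental replicate 1 lay above adapted replicate 3, so the groups overlap. The log2 fold change was 0.32 ± 0.11 (SE, limma, adjusted p = 0.0456), and the call was lost in 8 of 19 other fits, among them the fit without adapted replicate 1 (0.26, adjusted p = 0.0826), the fit centred on the median and that without an intensity trend. *HMOX2* shares 6.0% of its exonic bases with *NMRAL1* on the opposite strand, which moved by 0.33 on the log2 scale (adjusted p = 0.00631), and the part of this overlap was not tested. *HMOX1* rose from an FPKM of 4.88 ± 0.55 to 11.5 ± 1.02 (SD, n = 3 each, log2 fold change 1.09, limma, adjusted p = 1.09e-04). Its share in the sum of both oxygenases was 15.7%, 18.3% and 15.8% in parental and 26.7%, 25.4% and 29.6% in adapted samples. *BLVRA*, which reduces biliverdin to bilirubin, rose by 0.43 (adjusted p = 0.00672), whereas the other reductase *BLVRB* was at 5.51 ± 0.07 in parental and 5.49 ± 0.09 in adapted cells on the log2 scale (95% interval of the difference -0.18 to 0.14).

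**Figure D4:**
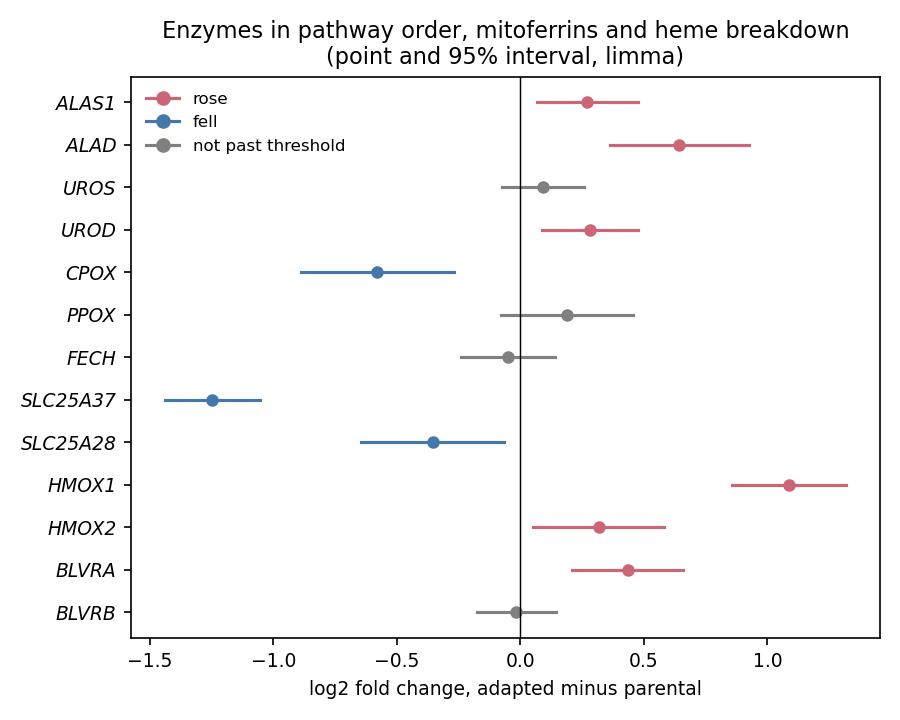
Log2 fold change, adapted minus parental (horizontal axis), with 95% limma intervals for the 7 enzymes in pathway order, the mitoferrins, the heme oxygenases and the biliverdin reductases. Intervals of *SLC25A37*, *CPOX* and *SLC25A28* lie below 0, those of *UROS*, *PPOX*, *FECH* and *BLVRB* include 0, and the others lie above it.

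A list of 32 other genes of heme precursors, transport, breakdown and sensing held *SLC25A28*, *HMOX1* and the reductases as well. Of these, 29 passed the filter on low values, 8 rose and 11 fell, beside 30.7% higher and 26.2% lower over all rows tested. Their median log2 fold change was -0.055, against 0.028 over all rows. Without adapted replicate 1, 10 rose and 13 fell, and 8370 of all rows passed in place of 7202. *ALAS2*, *FLVCR2* and *PPARGC1A* were under the filter, with *ALAS2* at a mean FPKM of 0.0467 in parental and 0.0346 in adapted cells. Besides *HMOX1*, the genes that rose included *PGRMC2*, a membrane protein that ferries heme (0.82, adjusted p = 6.36e-04), and *SLC46A1*, a folate carrier that also takes up heme (0.56, adjusted p = 4.66e-04). The falls were led by the heme-binding nuclear receptor *NR1D1* of the circadian clock (-1.89, adjusted p = 3.39e-06), the porphyrin transporter *ABCB6* (-0.99, adjusted p = 0.00527), the membrane transporter *FLVCR1* (-0.78, adjusted p = 8.04e-04), *BACH1*, a heme-sensing repressor of *HMOX1* (-0.77, adjusted p = 2.28e-04), and the mitochondrial protease gene *CLPP* (-0.58, adjusted p = 6.02e-04).

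In 147 rows of the table, values of 1 group do not return to a 6-decimal FPKM when the log2 and the 1 are taken away, and do so only after 1 constant is subtracted from that group. None of the 9 genes is among these rows. In the list above *SUCLG1*, a succinyl-CoA ligase subunit, is, with 0.66 in the adapted samples. As deposited, its log2 fold change was 1.18. With the constant subtracted *SUCLG1* rose by 0.52 (limma, adjusted p = 3.54e-04). Without the off-grid rows of that list, 6 of 27 tested genes rose and 11 fell, beside 30.7% and 26.2% over all rows. Their median log2 fold change was -0.12.

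Of 37 genes whose proteins hold, modify or depend on heme, 29 passed the filter, 14 rose and 7 fell, beside the same 30.7% and 26.2% over all rows. Their median log2 fold change was 0.25, against 0.028. The rises were led by the cytochrome P450 genes *CYP1A1* (log2 fold change 2.13, limma, adjusted p = 7.91e-06) and *CYP2S1* (1.24, adjusted p = 0.00136) and the endosomal ferrireductase *STEAP3* (1.25, adjusted p = 2.0e-05). *HCCS*, which attaches heme to cytochrome c, and *COX15*, which makes heme A for cytochrome c oxidase, rose by 1.20 and 1.18 as deposited. Both carry the constant of 0.66, as do *CYC1* and *SDHC*, and with it subtracted *HCCS* rose by 0.54 (adjusted p = 5.34e-04) and *COX15* by 0.52 (adjusted p = 6.89e-04). Falls were led by the prostaglandin synthases *PTGS1* (-4.21, adjusted p = 7.27e-06) and *PTGS2* (-3.85, adjusted p = 1.14e-05). *GUCY1B1*, the heme-holding subunit of soluble guanylate cyclase, fell by 1.12 on the log2 scale, *SCD*, a desaturase that receives electrons through cytochrome b5 and holds no heme, fell by 0.93, and *CYBA*, a subunit of the NADPH oxidase cytochrome, fell by 0.58 (adjusted p = 0.0016 at most for these).

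**Figure D5:**
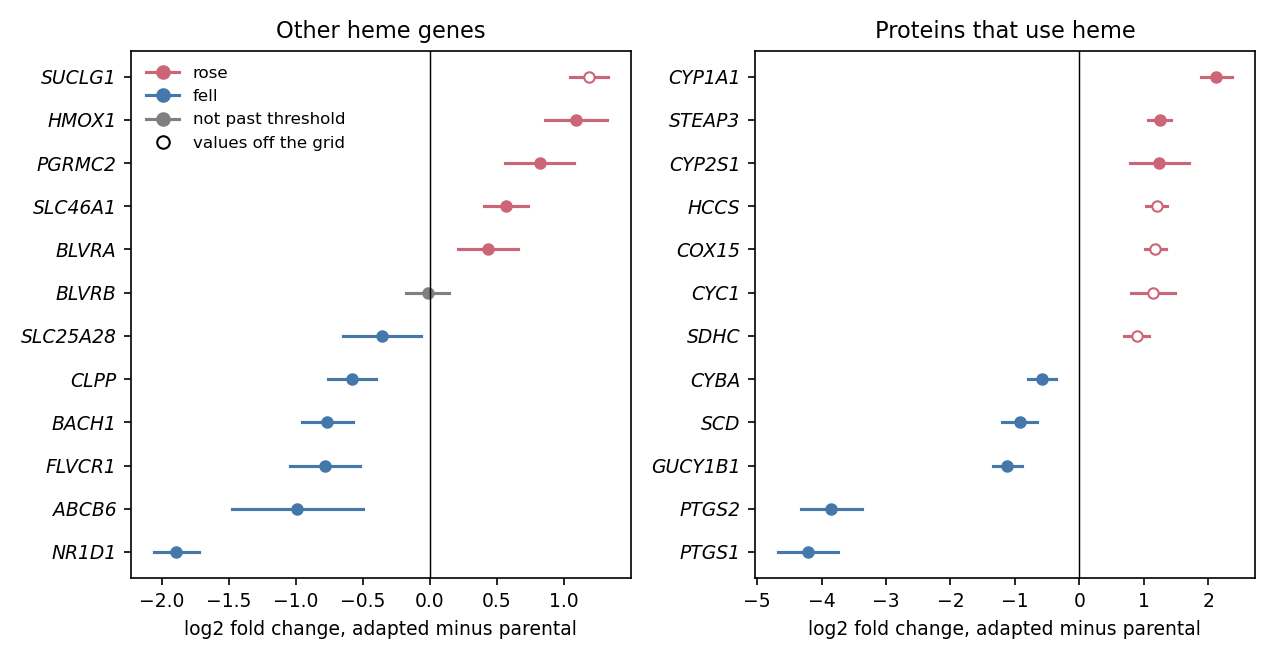
Log2 fold change, adapted minus parental (horizontal axis), with 95% limma intervals for the tested genes named in the text from the list of other heme genes (left) and from that of heme-using proteins (right), sorted by value, with open points for rows whose adapted values are off the 6-decimal grid. Changes run from -1.89 for *NR1D1* to 1.18 for *SUCLG1* on the left and from -4.21 for *PTGS1* to 2.13 for *CYP1A1* on the right.

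Of the genes that supply iron to mitochondria, the ferritinophagy receptor *NCOA4* rose from an FPKM of 44.5 ± 1.02 to 162 ± 12.8 and the ferritin gene *FTH1* fell from 2452 ± 23.8 to 1831 ± 24.2 (SD, n = 3 each), while *SLC25A37* fell. The transferrin receptor gene *TFRC* (log2 fold change -0.31, limma, adjusted p = 0.123) and the iron transporter gene *SLC11A2* (-0.24, adjusted p = 0.129) did not pass.

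By the Euclidean distance between values centred on their own mean over the 6 samples, *MASTL* (distance 0.045 on the log2 scale), *RAP1GAP* (0.098) and *HDGF* (0.11) were the nearest to *SLC25A37* among 11565 named genes on the grid. *MASTL*, a mitotic kinase gene, was at 4.10, 4.12 and 4.14 in parental and 2.997, 2.76 and 2.92 in adapted samples in log2(FPKM + 1), with adapted replicate 2 the lowest in both genes. The nearest to *FECH* were *C16orf91* (0.047), *PRKRA* (0.050) and *ANKRD40* (0.052).

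The positions of the genes are those of GENCODE on GRCh38, the build that the labels name as hg38. *ALAS1* spans bases 52198086 to 52214327 and *CPOX* bases 98579446 to 98593723 of chromosome 3. On chromosome 1 lie *UROD*, from 45012147 to 45015575, and *PPOX*, from 161166410 to 161178013. *ALAD* lies on chromosome 9 from 113386317 to 113401333, *UROS* on chromosome 10 from 125784980 to 125823285, *HMOX2* on chromosome 16 from 4474690 to 4510347 and *FECH* on chromosome 18 from 57548283 to 57586772. *SLC25A37* lies on chromosome 8 from 23528805 to 23575463.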

How the data were processed

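RNA-seq of 3 parental and 3 adapted samples of H1975 cells was analyzed. The authors deposited 1 table of log2 values without naming the unit. Undoing the log2 and an added 1 returned 6-decimal numbers in all samples for 27069 of 27216 rows (tolerance 0.005 of the 6th decimal). The values were therefore taken as a log2 with 1 added. That the unit is FPKM was assumed and cannot be read from these decimals. Per the labels, the submitters' processing notes name Bowtie2 2.1.0, STAR, edgeR and hg38 with no role. The quantifier and annotation are not given in the sources used here. The study's methods name a count model, for which these values are not fit, so limma 3.58.1 in R 4.3.3 (lmFit, eBayes with an intensity trend, two-sided) was run unpaired on the 12656 rows with a mean log2 value of at least 1, with Benjamini-Hochberg adjustment over all of them, with calls made under 0.05. Because 1 was added before the log, fold changes of low genes are understated. Errors cover the spread between replicates, since depth is unknown.

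The 9 genes and the gene lists were chosen with earlier results of these data known. All 9 genes were named. From the list of other heme genes and that of heme-using proteins, the called genes with the largest changes as deposited, constants included, were named, at most 5 in either direction. *ALAS2*, *SLC25A28*, *HMOX1*, *BLVRA* and *BLVRB* and the iron genes were named in any case, and the 3 nearest patterns to *SLC25A37* and *FECH*. *B4GALT3*, *NMRAL1*, *AC021660.3*, *CYC1*, *SDHC*, *FLVCR2* and *PPARGC1A* were named after their values were seen. Some genes that the rule names are not reported here. In simulated data of 12656 rows, 87.5% of 200 genes changed by 1 and 43.5% of those changed by 0.5 on the log2 scale were called. Only these 200 rows were changed there, whereas 7202 were called in the data. The adjustment depends on how many rows change, so these rates do not give the sensitivity of this comparison. Positions and overlaps came from GENCODE 29 and figures were drawn with Python 3.11 and matplotlib 3.10.9. Alternatives were another pseudocount, other filters and scalings, other variance settings, a replicate block, each sample left out in turn, the off-grid rows corrected or left out, and stricter thresholds.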

Additional observations from a re-analysis of the deposited data

How the results depend on the processing

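The number of rows past the threshold, 7202, was 4532 with a filter at a mean log2 value of at least 3, where fewer rows were tested, and 1328 where the change also had to reach 1 on the log2 scale in either direction. Of the 9 genes, 6 passed, against 3 (*ALAD*, *CPOX* and *SLC25A37*) at an adjusted p under 0.01, where 5140 of 12656 rows passed, and 1 (*SLC25A37*) with a change of 1 or more. Leaving out each sample in turn gave between 3 and 5 of the 9 and between 5763 and 8370 of all rows, both lowest without parental replicate 2. The log2 fold change of *FECH* then ran from -0.12 to 0.0059, and its sign turned without adapted replicate 3. No other gene of the 9 changed direction over 19 fits (18 for *PPOX*, which is under the stricter filter), scalings included. Subtracting the constants left 6 of the 9 past the threshold and 19 of 29 heme-using genes, against 21 as deposited. Of the heme-using genes 14 rose in either case, and 5 fell in place of 7. Of all 12656 rows, 7129 then passed, against 7202 as deposited. Equal replicate numbers did not mark pairs (correlation of deviations from the group means -0.051, -0.031 and -0.020), and with the replicate block 6761 rows and 6 of the 9 genes passed. The alternatives were set with earlier results of these data known. The depth of each sample is unknown, so no counting error can be given for low genes such as *PPOX*.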
